A study of Mus musculus with 32 samples.

Results

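The cerebellum arrays of 2 mouse models of autism spectrum disorder were set against each other to find the genes whose difference from WT ran the same way in both models and the genes whose differences ran in opposite directions. The 16 arrays were those whose labels name cerebellum, out of 32 arrays in all, the remaining 16 being of blood from the same mice. The groups were Fmr1-KO cerebellum (5 mice), their WT cerebellum (5 mice), Tsc2+/- cerebellum (3 mice) and their WT cerebellum (3 mice), with 1 array for each mouse. Fmr1-KO mice lack the X-linked gene Fmr1 and were congenic C57BL/6. Tsc2+/- mice carry 1 disrupted copy of Tsc2 on a mixed 129/SvJae and C57BL/6J background, and were used because mice without any intact copy die before birth. Each model had WT mice of its own background, none received a treatment, and all were young adults. The labels call the mice female and the study's methods call them male. The Y-linked gene Eif2s3y had an intensity of 403 to 835 on all 16 arrays and Xist, the RNA of the silenced X chromosome, 44.5 to 106. Because model, strain and experiment coincide, a difference between the models cannot be told apart from a difference between the strains or the experiments. The labels do not say which mice were littermates, so the p-values measure the spread between these mice only.

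Loss of FMRP, the RNA-binding protein that Fmr1 encodes, lifts a brake on the translation of many synaptic mRNAs and causes fragile X syndrome in humans. Tsc2 encodes tuberin, which with hamartin restrains the kinase complex mTORC1, and loss of a copy causes tuberous sclerosis complex. Both disorders carry a high rate of autism, and in mouse brain the 2 models are known for opposite changes in synaptic protein synthesis and in long-term depression driven by metabotropic glutamate receptors. The cerebellum holds Purkinje cells, the only output neurons of its cortex, and a very large number of granule cells, which drive them. In neurons, immediate early genes such as Fos and Npas4 are transcribed within minutes of synaptic activity, with no need for new protein.

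Each array gave 1 intensity, a brightness on a linear scale, for 35556 probe sets. For every probe set the log2 difference between Fmr1-KO and their WT mice and that between Tsc2+/- and their WT mice were estimated in 1 limma fit over the 4 groups. The model-by-genotype interaction is the first difference minus the second, so a positive interaction means a higher value in Fmr1-KO, relative to WT, than in Tsc2+/-. The mean effect is the average of both differences. A gene is called shared where both differences have 1 sign and the mean effect has an unadjusted p under 0.01, the study's own threshold, and opposed where the signs differ and the interaction has such a p. Counts of genes below refer to 14066 genes with a mean log2 intensity of 7 or more (an intensity of 128), 1 probe set a gene.

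The tissue matched its label. The Purkinje cell gene Pcp2 averaged 4566 ± 514 (SD, n = 5) in Fmr1-KO and 4675 ± 569 (SD, n = 5) in Fmr1 WT cerebellum, and 4538 ± 229.9 (SD, n = 3) in Tsc2+/- and 3837 ± 605 (SD, n = 3) in Tsc2 WT cerebellum. The granule cell gene Gabra6 lay between 3774 and 6506 on all 16 arrays. Choroid plexus markers, 10 genes of the epithelium that borders the cerebellum, summed to 21145 to 28774 in Fmr1-KO and 21116 to 27109 in Fmr1 WT mice, but to 2942, 19410 and 22540 in Tsc2+/- and 10850, 3173 and 21670 in Tsc2 WT mice. Fmr1-KO mouse 1 correlated with the rest of its group at 0.849 on the log2 scale and Fmr1 WT mouse 1 at 0.906, against 0.974 or more for the other 14 arrays. Over 1023 probe sets of olfactory receptors, which cerebellum hardly transcribes, the median intensity was 178 in Fmr1-KO mouse 1 and 46.04 to 93.08 on the other 15 arrays. Results that rest on these 2 arrays are given with and without them, except for counts of genes whose groups do not overlap.

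Few probe sets passed p under 0.01 in any comparison. The count was 81 of 35556 in Fmr1-KO mice (0.228%, 27 higher and 54 lower than WT) and 331 in Tsc2+/- mice (0.931%, 120 higher and 211 lower). The interaction had 173 (0.487%), 111 of them positive (0.312%) and 62 negative (0.174%), and the mean effect 290 (0.816%), 95 higher (0.267%) and 195 lower (0.548%). All 4 shares lie below the 1% that this threshold would pass if no probe set differed, so single genes below are described by their values on every array. At p under 0.05 these shares were 2.23% for the interaction and 4.34% for the mean effect. After Benjamini-Hochberg adjustment of the limma p-values, Fmr1 alone passed 0.05 in the Fmr1 comparison (adjusted p = 0.00209, 0.00281% of probe sets). In the Tsc2 comparison 4 probe sets passed (0.0112%), and 3 of them also passed for the interaction (0.00844%) and for the mean effect (0.00844%). None of these 4 has a gene name in the annotation used. Among the genes named below, Fmr1 had the smallest limma adjusted p, 0.16 for the mean effect and 0.18 for the interaction, so calls of single genes rest on the unadjusted threshold. The balance of directions depended on scaling. After a further quantile normalization the interaction had 92 positive and 120 negative calls against 111 and 62, the mean effect 210 higher and 261 lower, Fmr1-KO mice 74 and 109, and Tsc2+/- mice 245 and 208. With each array centred on its median the counts were 93 and 95 for the interaction, 160 and 230 for the mean effect, 50 and 62 in Fmr1-KO and 230 and 222 in Tsc2+/- mice.

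In both models the differences were small, with a median size of 0.0923 (log2) in Fmr1-KO and 0.103 in Tsc2+/- mice over the 14066 genes. The median standard error was 0.118 for the mean effect and 0.235 for the interaction. The same sign was seen in 9076 genes (64.5%), of which 6186 were lower in both models and 2890 higher in both. Across these genes Pearson's r between the 2 differences was 0.27 and Spearman's rho 0.273, as a description, since genes are not independent replicates and all share the same 16 arrays. Without Fmr1-KO mouse 1 the same-sign share was 55%, with r at 0.127. Leaving out Fmr1 WT mouse 1 as well brought it to 46.5%, with r at -0.016. Without these 2 arrays, which stand apart, the similarity of the 2 models over all genes was thus not seen. That omission was chosen after seeing the data, and single Tsc2 arrays were not left out for the 14066 genes. Over all probe sets r was 0.106, and it was 0.0472 without Tsc2+/- mouse 2.

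**Figure D1:**
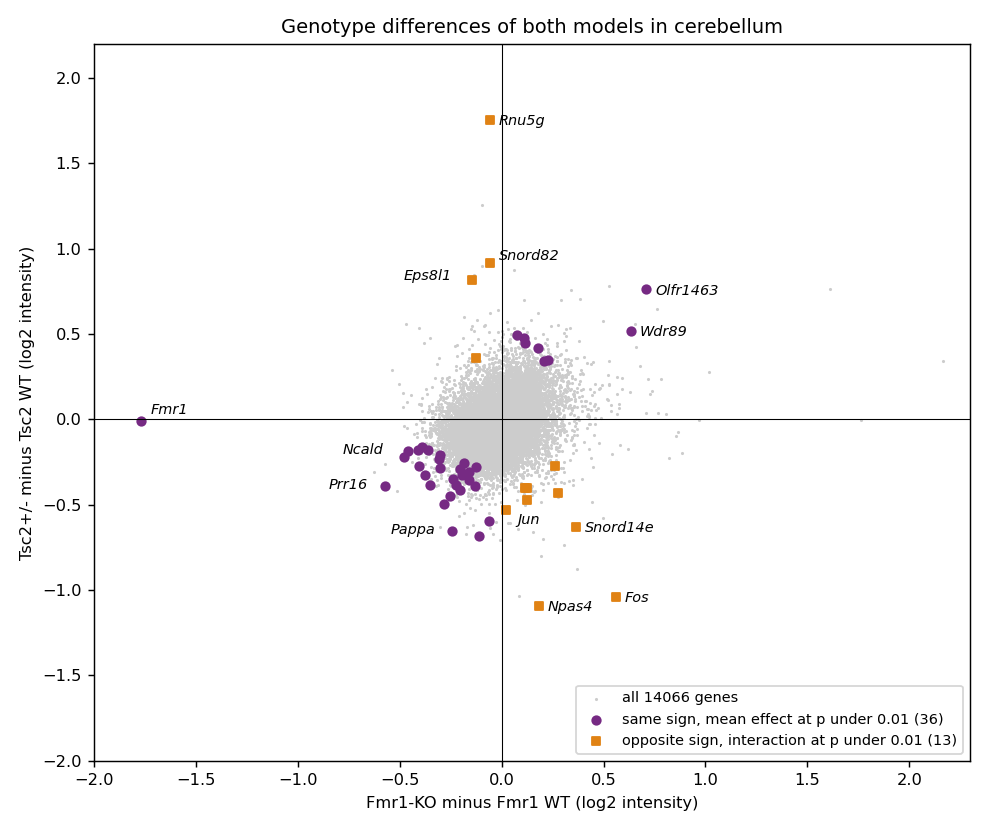
The log2 difference of Tsc2+/- from Tsc2 WT cerebellum (vertical) against that of Fmr1-KO from Fmr1 WT cerebellum (horizontal) for 14066 genes. All 36 shared and 13 opposed genes are coloured. Fmr1 lies far to the left at -1.77, Fos and Npas4 lie lowest among the opposed genes, and Olfr1463 and Wdr89 at the upper right.

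The gene that was removed checked the labels of the Fmr1 model. Fmr1 had intensities of 142, 306, 283, 289.6 and 284 in Fmr1-KO, against 837, 868, 917, 832 and 833 in Fmr1 WT cerebellum. It had 983, 889.6 and 802 in Tsc2+/-, against 905, 886 and 892 in Tsc2 WT cerebellum. Fmr1 was 3.4-fold lower in Fmr1-KO mice (log2 difference -1.77, standard error 0.17), with every KO array below every WT array, and its Tsc2 difference was -0.0095 (standard error 0.22). The interaction had an exact permutation p of 0.00516, two-sided over 5040 relabellings of mice within each model. Its signs happen to coincide, so that Fmr1 meets the rule for a shared gene although the Tsc2 difference is near 0 and above it after either further scaling of the arrays.

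Tsc2 was less clear. It had intensities of 713, 754 and 999.5 in Tsc2+/- cerebellum, against 1125, 1176 and 1109.6 in Tsc2 WT cerebellum. In the other model it had 1195, 919.9, 972, 982 and 992 in Fmr1-KO, against 1453, 964, 829, 1046 and 869 in Fmr1 WT cerebellum. The 3 Tsc2+/- mice lay below their 3 WT mice, the third of them closest, whereas the Fmr1 groups overlapped. The difference was -0.48 (standard error 0.19) in Tsc2+/- mice, which did not pass 0.01, and the interaction was 0.48 (standard error 0.24). The exact permutation p was 0.1 for Tsc2+/- against WT, the smallest that 3 mice against 3 allow, and 0.122 for the interaction. By quantitative RT-PCR of the brain samples, the study reported Tsc2 lower in both models, significant in neither.

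Of the 14066 genes, 36 were shared (0.256%), 8 of them higher (0.0569%) and 28 lower (0.199%) in both models, Fmr1 among those lower. Without Fmr1-KO mouse 1 there were 48 (14 higher and 34 lower, 30 of them among the 36), and without both arrays numbered 1 of the Fmr1 model 67 (15 higher and 52 lower, 28 among the 36). After a further quantile normalization there were 38 (17 higher and 21 lower), and with arrays centred on their medians 32 (19 higher and 13 lower), of which 17 were among the 36 in each case. The genes below are the 8 higher in both and the 12 lower in both with the largest smaller difference of the 2. Of these 20, Prr16, Vwa7, Pappa, Tshz3 and Olfr1463 kept a mean-effect p under 0.01 in all 25 other settings and single-array omissions, and the others lost it in at least 1. The losses ran from 3 of the 25 in Zswim7 and Csmd3 to 17 in Mir24-2, with Mafa at 15 and Arv1 at 14.

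Prr16, also called Largen, a promoter of cell size in human cells, was lower in both models. Its intensity was 463, 434, 444, 438 and 407 in Fmr1-KO, against 904, 704, 517, 618 and 570.1 in Fmr1 WT cerebellum. In the other model it was 518, 616 and 548 in Tsc2+/-, against 723, 775 and 702 in Tsc2 WT cerebellum. No mutant array of either model overlapped its WT group, and the WT mice of the Fmr1 model spread widely, with mouse 1 highest. Prr16 was 1.49-fold lower in Fmr1-KO (log2 -0.57, standard error 0.13) and 1.31-fold lower in Tsc2+/- mice (log2 -0.39, standard error 0.17). The mean effect was -0.48 (standard error 0.11, limma adjusted p = 0.716).

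Vwa7, a gene for a protein with a von Willebrand factor A domain, had the smallest mean-effect p among the named shared genes apart from Fmr1. Its intensities were 234, 214, 203, 196 and 228 in Fmr1-KO, against 292, 244, 239.8, 276 and 233 in Fmr1 WT cerebellum. They were 227, 207 and 225 in Tsc2+/-, against 282, 308 and 307 in Tsc2 WT cerebellum. The Tsc2 groups were well apart, and in the Fmr1 model 1 KO array lay above the lowest WT array by about 1 unit of intensity. The mean effect was -0.35 (standard error 0.074, limma adjusted p = 0.716), from -0.25 in Fmr1-KO and -0.45 in Tsc2+/- mice. Vwa7 and Wdr46 lie on chromosome 17, as does Tsc2.

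Pappa, a secreted protease that frees insulin-like growth factors from a binding protein, was 1.57-fold lower in Tsc2+/- mice. It measured 198, 205 and 217 in Tsc2+/-, against 319, 333 and 321 in Tsc2 WT cerebellum. In Fmr1-KO cerebellum it measured 337, 219, 246, 226 and 260.3, against 320, 329.7, 309.7, 301 and 254 in Fmr1 WT cerebellum. Fmr1-KO mouse 1 was the highest of its experiment, whereas 3 of the other 4 KO arrays lay below all WT arrays. The differences were -0.65 (standard error 0.15) in Tsc2+/- and -0.25 (standard error 0.12) in Fmr1-KO mice. The mean effect was -0.45 (limma adjusted p = 0.716), and without Fmr1-KO mouse 1 it was -0.50.

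Among genes of neurons, Csmd3, a large membrane protein with CUB and sushi domains, was similarly placed in both models, at -0.35 in Fmr1-KO and -0.38 in Tsc2+/- mice. It had 852, 942, 1151, 874 and 1156 in Fmr1-KO, against 1432, 1221, 1231, 1253 and 1179.8 in Fmr1 WT cerebellum, with no overlap. It had 1296, 898 and 1001 in Tsc2+/-, against 1327, 1527 and 1276 in Tsc2 WT cerebellum, where Tsc2+/- mouse 1 fell within the WT range. Tshz3, a zinc finger transcription factor, had 579, 653, 722, 609.9 and 646 in Fmr1-KO, against 967, 829.6, 691, 864 and 831 in Fmr1 WT cerebellum. In the Tsc2 model it had 660.1, 766 and 789 in Tsc2+/-, against 879.9, 828 and 1079.8 in Tsc2 WT cerebellum. All Tsc2+/- arrays were below WT, and in the Fmr1 model KO mouse 3 was above the lowest WT mouse. Its differences were -0.38 and -0.33 in the order Fmr1-KO, Tsc2+/-.

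Ncald, a neuronal calcium sensor, and Wdr46, a nucleolar protein of ribosome assembly, did not overlap with WT in either model. Ncald had 575, 748, 755, 755 and 654 in Fmr1-KO, against 1405, 919, 893, 845 and 868 in Fmr1 WT cerebellum. It had 827, 786 and 769 in Tsc2+/-, against 844, 1014 and 926 in Tsc2 WT cerebellum. Its Fmr1 WT mouse 1 was far above the other WT mice, and in Tsc2+/- mice the gap to WT was narrow. Wdr46 had 305, 289.7, 276, 289 and 286 in Fmr1-KO, against 454, 369.7, 341, 332 and 307 in Fmr1 WT cerebellum. It had 343, 312 and 293 in Tsc2+/-, against 386, 355 and 372 in Tsc2 WT cerebellum. The differences of Ncald were -0.48 in Fmr1-KO and -0.22 in Tsc2+/- mice, and those of Wdr46 -0.31 and -0.23 in that order.

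Rims3, a protein of the presynaptic active zone, was at -0.41 in Fmr1-KO and -0.27 in Tsc2+/- mice, with Fmr1-KO mouse 2 the single KO array inside the WT range. Ammecr1, an X-linked gene of little known function, was at -0.28 and -0.50 in that order. Gcnt1, a glycosyltransferase that branches O-glycans, Mirt1, a long noncoding RNA, and Arv1, a lipid transport protein of the endoplasmic reticulum, had differences between -0.30 and -0.23 in Fmr1-KO and between -0.38 and -0.29 in Tsc2+/- mice. The other 16 genes lower in both, Fmr1 included, had mean-effect p-values up to 0.00965. Adcy8, a calcium-stimulated adenylyl cyclase, stood at -0.46 in Fmr1-KO and -0.18 in Tsc2+/- mice, Pde3a, which degrades cyclic AMP, at -0.41 and -0.18 in that order, and Dnmt3a, a DNA methyltransferase, at -0.16 and -0.31. These 3 were picked from the 16 after their values were seen.

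Fewer genes were higher in both models. Olfr1463, an olfactory receptor gene, had 1069.6, 426, 417, 419 and 566 in Fmr1-KO, against 320.3, 325, 267, 335 and 415 in Fmr1 WT cerebellum. It had 486, 528 and 446 in Tsc2+/-, against 318, 324 and 228 in Tsc2 WT cerebellum. Every mutant array lay above every WT array of its model, with Fmr1-KO mouse 1, the array with the high olfactory receptor median, far above all others. Olfr1463 was 1.64-fold higher in Fmr1-KO (log2 0.71, standard error 0.23) and 1.7-fold higher in Tsc2+/- mice (log2 0.76, standard error 0.30). The mean effect was 0.74 (limma adjusted p = 0.911), and without both arrays numbered 1 of the Fmr1 model it was 0.61.

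Wdr89, a WD repeat protein, had 683, 301, 275, 349.9 and 342 in Fmr1-KO, against 179, 235, 276, 214 and 302 in Fmr1 WT cerebellum. It had 332, 423 and 413 in Tsc2+/-, against 206, 312 and 306 in Tsc2 WT cerebellum. Fmr1-KO mouse 1 was again the highest, the rest of the Fmr1 groups overlapped, and the Tsc2+/- mice lay above WT. Its mean effect was 0.58, and 0.41 without both arrays numbered 1. Cckar, a receptor of the gut and brain peptide cholecystokinin, was at 0.23 in Fmr1-KO and 0.35 in Tsc2+/- mice, and Naprt, an enzyme of NAD synthesis, at 0.21 and 0.34 in that order. Zswim7, Smim1, Mir24-2 and Mafa, a transcription factor of insulin-producing cells, had Fmr1 differences between 0.076 and 0.18 and Tsc2 differences between 0.42 and 0.50, so that the Tsc2 model carried most of their mean effect. All 8 genes had Tsc2+/- mice above every Tsc2 WT mouse, as did 1.32% of the 14066 genes. Only Olfr1463 did not overlap in the Fmr1 model, where 0.0498% of genes had every KO mouse above every WT mouse. The 8 were picked by their differences on these same arrays, which favours such separation, so this is a description.

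**Figure D2:**
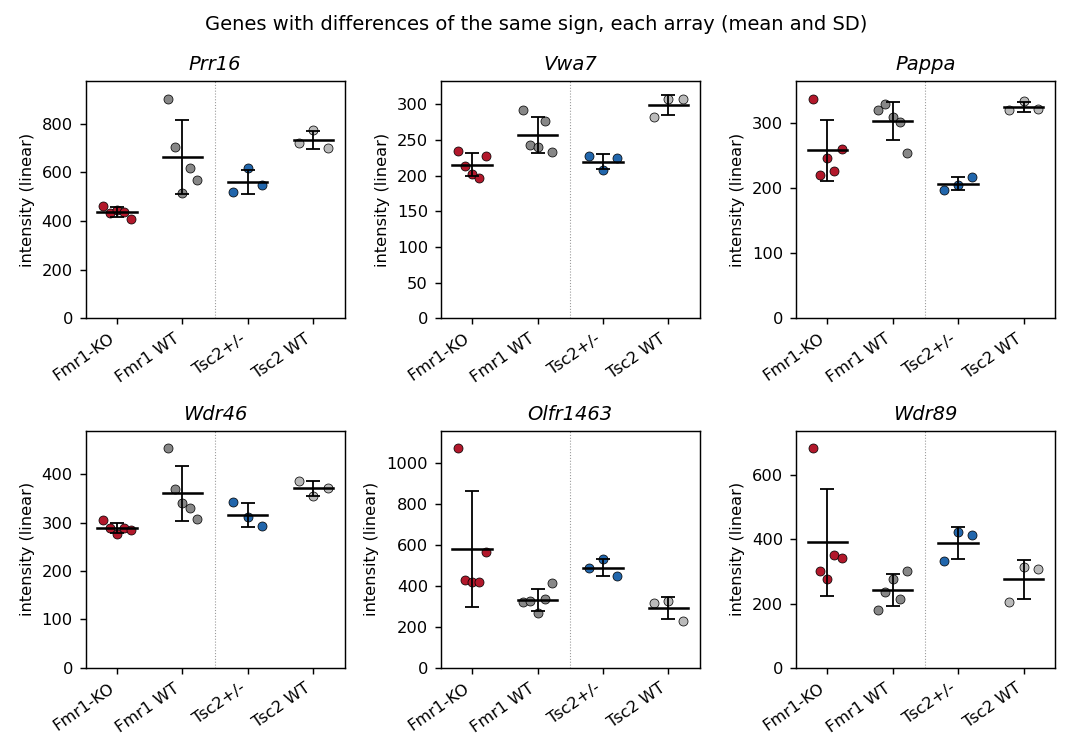
Intensity on each array of 6 shared genes, with Fmr1-KO left of Fmr1 WT and Tsc2+/- left of Tsc2 WT; each point is 1 mouse and bars mark the mean. Prr16 and Wdr46 lie lower in both mutants with no overlap, and Olfr1463 higher, with Fmr1-KO mouse 1 at 1069.6.

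Non-overlap gives a view without a model of the spread. In the Fmr1 model, 56 of the 14066 genes did not overlap between KO and WT mice (0.398%), 7 above (0.0498%) and 49 below (0.348%). In the Tsc2 model, where 3 mice a group make it easier, 1339 did not (9.52%), 1154 below WT (8.2%) and 185 above (1.32%). In 12 genes (0.0853%) neither model overlapped, and all 12 ran the same way in both, whereas 0 genes separated fully in opposite directions. Relabelling mice would separate a gene without a difference with a chance of 0.00794 in the Fmr1 and 0.1 in the Tsc2 model. The observed shares, 0.398% and 9.52%, lie below these. Most genes without overlap were lower in each model, so few opposite ones could arise and the 0 carries little information. These counts were not repeated without the arrays that stand apart. Olfr1463 and Paqr5, a membrane progestin receptor, were higher in both mutants (0.0142%). Prr16, Wdr46, Ncald, Pde3a, Zfp39, Zfp157, Zfp608, Ccsap, Pde4b, a cyclic AMP phosphodiesterase, and Vegfa, the growth factor of blood vessels, were lower in both (0.0711%). Of these 12, Zfp39, Zfp157, Zfp608, Pde4b, Vegfa, Ccsap and Paqr5 had mean-effect p-values between 0.0145 and 0.0314 and were not called.

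At p under 0.05, 856 probe sets were listed for Fmr1-KO (2.41%) and 1403 for Tsc2+/- mice (3.95%). Both lists held 56 probe sets in the same direction (0.157%, 6.54% of the Fmr1 list and 3.99% of the Tsc2 list), 13 higher (0.0366%) and 43 lower (0.121%). In opposite directions were 27 (0.0759%), which is 3.15% of the Fmr1 list and 1.92% of the Tsc2 list, 18 higher in Fmr1-KO (0.0506%) and 9 higher in Tsc2+/- mice (0.0253%). Those with 1 gene name numbered 18 and 6. Besides genes above, those in the same direction included 1 probe set each of Tet1, an enzyme that oxidises methylated cytosine (-0.22 in Fmr1-KO and -0.31 in Tsc2+/- mice), Atf7ip, a cofactor of histone methylation (-0.27 and -0.41), and Myh9, a nonmuscle myosin (-0.29 and -0.33). The brightest probe sets of these 3 genes stood at -0.21 and -0.25 for Tet1, -0.065 and -0.0052 for Atf7ip, and -0.087 and -0.041 for Myh9, and were not listed. Those in opposite directions were Fos, Snord14e and Tmem198, with Crisp2, Dleu2 and Gpr65 at mean log2 intensities of 3.21 to 4.45.

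Opposed genes were fewer. The interaction passed p under 0.01 in 14 of the 14066 genes (0.0995%), Fmr1 being the 1 with equal signs, and the other 13 were opposed (0.0924%). In 9 the value was higher in Fmr1-KO and lower in Tsc2+/- than in WT (0.064%), and in 4 the reverse (0.0284%). Immediate early genes made up 4 of the 9, namely Fos, Npas4, Jun and Fosl2. Without Fmr1-KO mouse 1 the number of opposed genes was 22 (18 higher in Fmr1-KO and 4 higher in Tsc2+/-, 9 of them among the 13), and without both arrays numbered 1 of the Fmr1 model 75 (64 and 11, 10 among the 13). A further quantile normalization gave 12 (6 and 6, 7 among the 13) and centring on the array median 12 (3 and 9, 7 among the 13), so the excess of genes higher in Fmr1-KO did not hold under either scaling. Fos, Snord14e and Npas4 kept an interaction p under 0.01 in all 25 other settings and omissions, and the other 10 genes lost it in at least 1. The losses ran from 2 of the 25 in Slc16a10 to 18 in Apold1. Hoxd13 lost it in 15, Snord82 in 14, Fosl2 in 12 and Eps8l1 in 9.

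Fos, a subunit of the transcription factor AP-1 and a common marker of recently active neurons, differed most among the named genes with a higher value in Fmr1-KO. Its intensities were 526, 577, 545, 970.1 and 555 in Fmr1-KO, against 423, 455, 347, 625 and 305 in Fmr1 WT cerebellum. They were 281, 264 and 269 in Tsc2+/-, against 533, 544 and 597 in Tsc2 WT cerebellum. The Tsc2+/- arrays were the lowest of all 16 and close to one another, while in the Fmr1 model 4 WT mice lay below every KO mouse and WT mouse 4 above 4 of them. Fos was 2.06-fold lower in Tsc2+/- mice (log2 -1.04, standard error 0.25). In Fmr1-KO mice the difference was 0.56 (standard error 0.19), which did not pass 0.01. The interaction was 1.60 (standard error 0.32, limma adjusted p = 0.545), and it ranged from 1.44 to 1.77 with other settings and with single arrays left out.

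Npas4, a transcription factor that neurons induce on calcium entry, had 371, 206, 213, 306 and 255 in Fmr1-KO, against 367, 223, 170.4, 236 and 205 in Fmr1 WT cerebellum. It had 103, 101 and 154 in Tsc2+/-, against 230.2, 226 and 298 in Tsc2 WT cerebellum. The Fmr1 groups overlapped throughout, with mouse 1 highest in both, and the Tsc2+/- mice lay below all other arrays. Npas4 was 2.13-fold lower in Tsc2+/- mice (log2 -1.09, standard error 0.28), its Fmr1 difference was 0.18 (standard error 0.22), and its interaction 1.27 (standard error 0.35, limma adjusted p = 1).

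Jun, the partner of Fos in AP-1, had 1046, 1067 and 1143 in Tsc2+/-, against 1562, 1555 and 1576 in Tsc2 WT cerebellum. It had 1676, 1411, 1477, 1501 and 1265 in Fmr1-KO, against 1621, 1507, 1191, 1463 and 1436 in Fmr1 WT cerebellum. It was 1.44-fold lower in Tsc2+/- mice with no overlap (log2 -0.53), and the Fmr1 groups overlapped with a difference of 0.024 (standard error 0.099), so that the opposite sign rests on a value near 0. The interaction was 0.55 (standard error 0.16, limma adjusted p = 1), and Jun also passed for the mean effect (-0.25, limma adjusted p = 0.911). Its Fmr1 difference was -0.026 without Fmr1-KO mouse 1 and -0.033 with arrays centred on their medians.

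Fosl2, another AP-1 subunit, had 236, 275 and 236 in Tsc2+/-, against 329, 329 and 326 in Tsc2 WT cerebellum. It had 204, 224, 240, 241 and 245 in Fmr1-KO, against 229, 209.9, 224, 231 and 175 in Fmr1 WT cerebellum. Here the Tsc2 WT mice were the high group, 0.62 above the Fmr1 WT mice on the log2 scale, and the Tsc2+/- mice were near the level of both Fmr1 groups. The interaction was 0.52 (standard error 0.16) and did not pass 0.01 after the arrays were quantile normalized again or centred on their medians. For Fos the Tsc2 WT mice lay 0.42 above the Fmr1 WT mice, for Npas4 0.10 and for Jun 0.12.

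**Figure D3:**
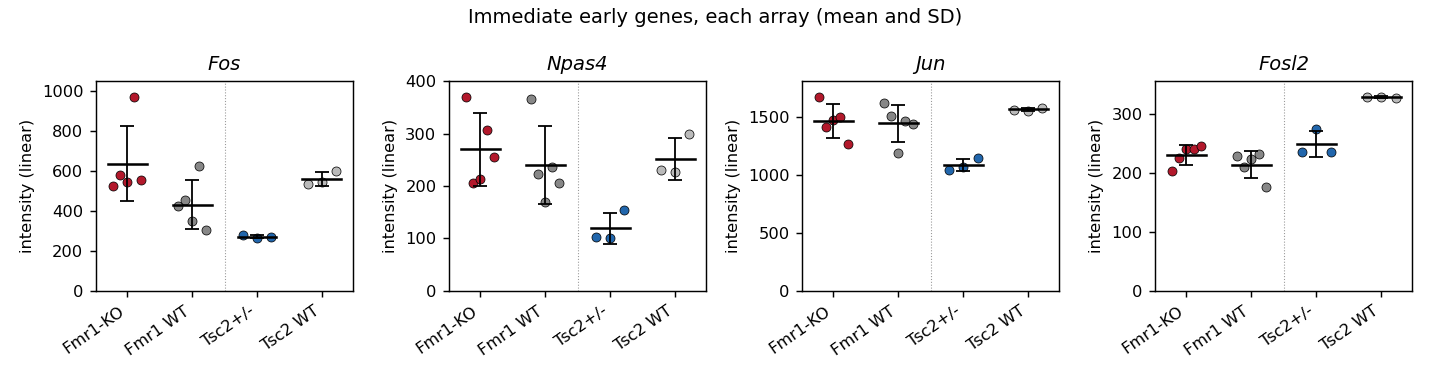
Intensity of Fos, Npas4, Jun and Fosl2 on each array, with Fmr1-KO left of Fmr1 WT and Tsc2+/- left of Tsc2 WT; each point is 1 mouse and bars mark the mean. The 3 Tsc2+/- mice lie below their 3 WT mice in each gene, and the Fmr1 groups overlap.

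The promoters of Fos, Npas4 and Jun are shown because these 3 genes were called opposed and are known targets of certain factors. Those factors bind the cyclic AMP response element, whose core is TGACG. In Npas4 and Jun the Tsc2 difference carried most of the interaction, and the promoter of Fosl2, also called opposed, is not printed. The 250 bases before the annotated start are printed 5′ to 3′ on the gene's strand, from RefSeq on GRCm38.p6: chr12:85473640-85473889 on the plus strand, chr19:4989972-4990221 on the minus strand and chr4:95052223-95052472 on the minus strand. Capitals mark matches, on either strand, to TGACG, to TGACNTCA, a variant of that element which Jun's promoter is known for, and to TGANTCA, the AP-1 motif.
Fos: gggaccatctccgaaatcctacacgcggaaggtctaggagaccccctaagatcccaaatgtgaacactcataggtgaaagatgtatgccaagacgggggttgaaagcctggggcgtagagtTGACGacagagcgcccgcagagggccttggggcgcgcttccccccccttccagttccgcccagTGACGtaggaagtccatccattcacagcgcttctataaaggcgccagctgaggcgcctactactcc
Npas4: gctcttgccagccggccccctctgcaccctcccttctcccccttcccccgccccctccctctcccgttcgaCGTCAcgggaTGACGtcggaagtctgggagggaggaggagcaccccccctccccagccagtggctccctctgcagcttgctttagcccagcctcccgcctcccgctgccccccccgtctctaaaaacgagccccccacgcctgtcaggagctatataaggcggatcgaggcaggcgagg
Jun: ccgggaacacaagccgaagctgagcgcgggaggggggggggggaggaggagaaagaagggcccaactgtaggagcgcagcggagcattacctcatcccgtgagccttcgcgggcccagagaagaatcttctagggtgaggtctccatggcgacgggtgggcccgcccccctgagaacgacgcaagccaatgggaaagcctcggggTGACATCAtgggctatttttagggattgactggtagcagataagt

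In windows of 300 bases, 250 before and 50 after the start, Fos and Npas4 each held 2 matches to TGACG, Jun held 1 to TGACNTCA, and Fosl2 held none of the 3 motifs. TGACG can overlap TGACNTCA where the middle base is G. Of 32851 promoter windows of 27025 genes, 20.8% held TGACG, 8.83% TGACNTCA and 7.81% TGANTCA. Among the 28 immediate early genes, 23 had a window, of which 19 held TGACG, 5 TGACNTCA and 1 TGANTCA, where the shares of all genes were 23%, 10% and 8.97%. A match is a stretch of letters and was not tested as a binding site.

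The signs of the whole immediate early list are given next, as a description. The list includes the 4 called genes, which have opposite signs by the rule that named them. It was chosen with earlier results of these data known, and its genes are not independent of one another. Of 28 immediate early genes measured, 23 had a positive Fmr1 difference (median 0.12) and 21 a negative Tsc2 difference (median -0.18). Both held together in 18 of the 28, against 18.7% of the 14066 genes, where a positive Fmr1 difference was seen in 39.2% and a negative Tsc2 difference in the majority. In the Tsc2 model 4 of the 28 were called, all lower (0.593% of probe sets called lower), in the Fmr1 model 0, and 9 lay below every Tsc2 WT mouse (8.2% of genes). These 9 were Fos, Jun, Npas4, Fosl2, Egr1, Nr4a1, Dusp1, Bdnf and Sik1. The 5 genes with both differences positive, Fosb, Egr2, Egr3, Dusp6 and Maff, were above WT in both mutants.

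Nr4a1, a nuclear receptor, was at 0.37 (standard error 0.26) in Fmr1-KO and -0.88 (standard error 0.34) in Tsc2+/- mice, with an interaction of 1.25. Dusp1, a phosphatase of MAP kinases, was at 0.087 and -1.04 in that order. It averaged 2301 ± 1547 (SD, n = 5) in Fmr1-KO and 2276 ± 1774 (SD, n = 5) in Fmr1 WT mice, so the spread in both Fmr1 groups was wide. Nr4a3 stood at 0.50 and -0.58, Btg2, an inhibitor of proliferation, at 0.16 and -0.31, and Sik1, a salt-inducible kinase, at 0.15 and -0.45. Relative to Fmr1 WT mice, Nr4a3 stood at 1.52 (log2) in Tsc2 WT and at 0.95 in Tsc2+/- mice. Arc, which controls the uptake of AMPA receptors and is a classical immediate early gene, was near 0 in both, at -0.007 in Fmr1-KO and -0.047 in Tsc2+/- mice. Homer1, a scaffold of metabotropic glutamate receptors, was below WT in both, at -0.21 and -0.13, and was the 1 member with every Fmr1-KO mouse below every Fmr1 WT mouse (background 0.348%).

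Summed over the 28 genes, the intensities were 17510, 11850, 11630, 13250 and 10880 in Fmr1-KO mice, against 17000, 11700, 9682, 11950 and 9757 in Fmr1 WT mice. They were 9663, 10140 and 9729 in Tsc2+/- mice, against 12860, 13340 and 13020 in Tsc2 WT mice. The Tsc2 groups did not overlap, the Fmr1 groups did, and mouse 1 was highest in both Fmr1 groups. With both of these arrays left out, 7 immediate early genes passed p under 0.01 for the interaction. Nr4a1 (1.34), Dusp1 (1.17) and Sik1 (0.63) joined the first 4, and 16 of the 28 were higher in Fmr1-KO and lower in Tsc2+/- mice. Over all genes this setting raised both counts as well, with 350 interaction calls among the 35556 probe sets against 173, and 4956 of the 14066 genes higher in Fmr1-KO and lower in Tsc2+/- mice against 2626. With only Fmr1-KO mouse 1 left out the same 4 passed, and 14 of the 28 had this pattern, as did 3859 of the 14066 genes. With the arrays centred on their medians Fos and Npas4 passed, and after quantile normalization Fos, Jun and Npas4 did. In both of these settings 19 of the 28 had a positive Fmr1 difference, and 19 and 20 a negative Tsc2 difference.

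**Figure D4:**
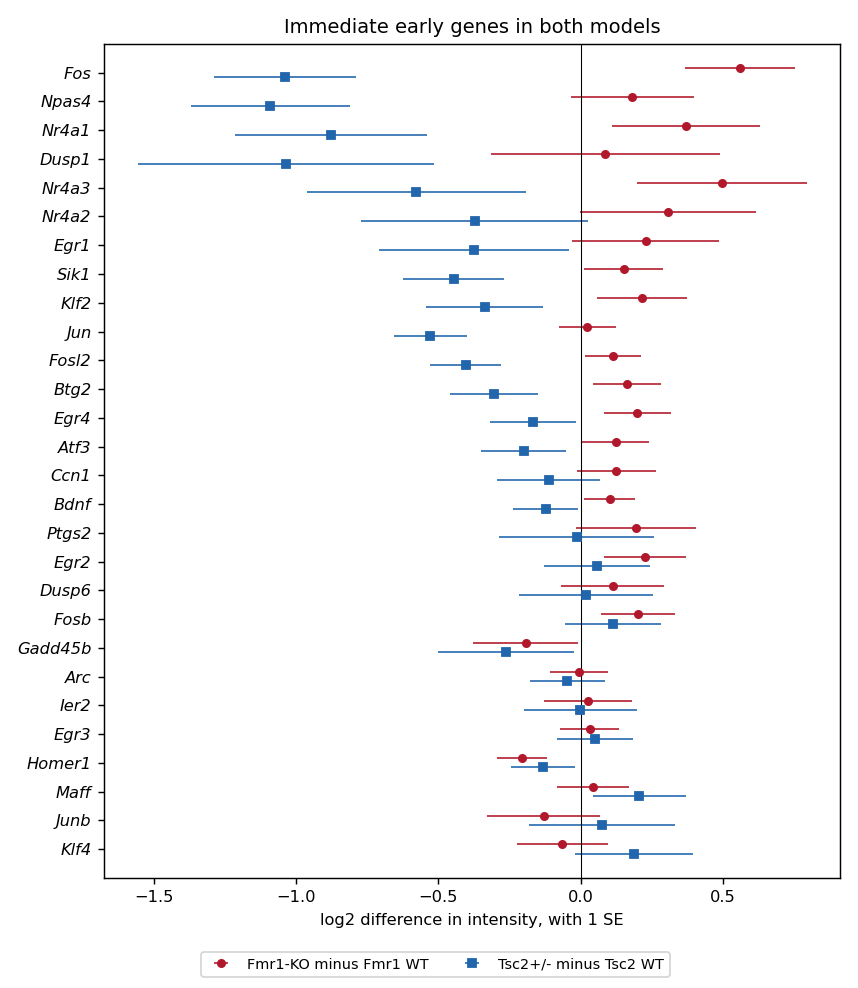
Log2 difference from WT of 28 immediate early genes in Fmr1-KO and Tsc2+/- cerebellum, with bars of 1 standard error from the limma fit. Most Fmr1-KO points lie right of 0 and most Tsc2+/- points left of it, with the widest gaps in Fos (0.56 and -1.04) and Npas4 (0.18 and -1.09).

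Snord14e, a small nucleolar RNA that guides methylation of ribosomal RNA and lies in an intron of Hspa8, was opposed as clearly as Fos. It had 1154, 1239, 1256, 1696 and 1295 in Fmr1-KO, against 955, 1227, 989.96, 977 and 979 in Fmr1 WT cerebellum. It had 730.1, 654 and 856 in Tsc2+/-, against 1112, 1079 and 1263 in Tsc2 WT cerebellum. The Tsc2+/- mice were the lowest of all, and in the Fmr1 model WT mouse 2 alone reached into the KO range. The differences were 0.37 (standard error 0.12) in Fmr1-KO and -0.63 (standard error 0.16) in Tsc2+/- mice, so that Snord14e passed p under 0.01 in each model on its own, and the interaction was 1.00 (standard error 0.20, limma adjusted p = 0.545).

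The host gene did not share this pattern. Hspa8, a constitutive heat shock chaperone, lay at 10526 to 13098 in Fmr1-KO and 11892 to 13719 in Fmr1 WT cerebellum, and at 12795 to 13488 in Tsc2+/- and 12411 to 13356 in Tsc2 WT cerebellum, with an interaction of -0.11 (standard error 0.13). A pair of unnamed probe sets with neighbouring numbers had the same profile, with interactions of 1.06 and 1.06. Probe sets of near-identical small RNAs can share signal, so these 3 are not independent.

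Slc16a10, a transporter of aromatic amino acids, had 184, 167 and 161 in Tsc2+/-, against 241, 261 and 209 in Tsc2 WT cerebellum. It had 189.5, 196, 200.2, 175 and 182 in Fmr1-KO, against 181, 181, 154, 180.2 and 171 in Fmr1 WT cerebellum. As with Fosl2, the Tsc2 WT mice were high and the other groups lay together, and the interaction was 0.59 (standard error 0.15). Yipf2, a Golgi membrane protein, was at 0.28 in Fmr1-KO and -0.43 in Tsc2+/- mice, with Fmr1 WT mouse 3 low at 441. Tmem198, a membrane protein, was at 0.26 and -0.27 in that order, and its Fmr1 WT mouse 3 was low too, at 257. Apold1, which endothelial cells induce early, was at 0.12 and -0.40. In Yipf2, Tmem198 and Apold1 too the Tsc2 WT mice lay above the Fmr1 WT mice, by 0.44, 0.27 and 0.30 (log2). Relative to Fmr1 WT mice, the Tsc2+/- mice stood at 0.012, -0.0039 and -0.096 in that order.

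On the other side were 4 genes with a higher value in Tsc2+/- mice. Eps8l1, a relative of the actin regulator Eps8, had 231, 187 and 139 in Tsc2+/-, against 98.7, 80.7 and 136 in Tsc2 WT cerebellum. It had 134, 144, 95.9, 105 and 136 in Fmr1-KO, against 118, 126, 160.03, 159.8 and 116 in Fmr1 WT cerebellum. Tsc2+/- mouse 3 lay just above the highest WT mouse, and the Fmr1 groups overlapped. Eps8l1 was 1.77-fold higher in Tsc2+/- mice (log2 0.82, standard error 0.24), at -0.14 in Fmr1-KO mice, and its interaction was -0.96 (standard error 0.30, limma adjusted p = 1). The study named Eps8l1 from these same arrays, so these values are a description and no independent evidence of its direction.

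Rnu5g, a gene for the U5 RNA of the spliceosome, had 399.6, 796 and 408 in Tsc2+/-, against 128, 189 and 139 in Tsc2 WT cerebellum. It had 111, 226, 99.6, 322 and 222 in Fmr1-KO, against 177, 189, 136, 137 and 349.8 in Fmr1 WT cerebellum. The Tsc2+/- mice exceeded all other arrays, by 3.38-fold over their WT mice (log2 1.76, standard error 0.45), while the Fmr1 groups spread widely and overlapped (-0.058, standard error 0.35). Its Fmr1 difference was 0.11 without Fmr1-KO mouse 1 and 0.095 without both arrays numbered 1, both with the sign of Tsc2+/- mice, and the interaction did not pass 0.01 in either case. Rnu5g also passed for the mean effect (0.85, limma adjusted p = 0.911). U5 has near-identical copies in the genome, so the probe set may not measure 1 gene. Snord82, a small nucleolar RNA, had 1513, 2052 and 1861 in Tsc2+/-, against 752, 1084 and 1056 in Tsc2 WT cerebellum, and was at 0.92 there and at -0.057 in Fmr1-KO mice. Hoxd13, a homeobox gene of limb and genital patterning, was at 0.36 and -0.13 in the same order, with overlap in both models. Relative to Fmr1 WT mice, its Tsc2 WT mice stood at -0.40 (log2) and its Tsc2+/- mice at -0.043.

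The probe sets that passed the adjusted threshold were far apart in the Tsc2 model and alike in the Fmr1 model. Probe set 10564209 had 145, 132 and 144 in Tsc2+/-, against 3727, 3689.8 and 5969 in Tsc2 WT cerebellum, an interaction of 4.81 (limma adjusted p = 0.000265). Probe set 10563959 had 114, 161 and 197 in Tsc2+/-, against 1704, 1839 and 1802 in Tsc2 WT cerebellum, an interaction of 3.43 (limma adjusted p = 0.00733). In the Fmr1 model the first lay between 2001 and 5022 and the second between 944 and 2406 on all 10 arrays, at the level of the Tsc2 WT mice. Probe set 10340657 ran the other way but near the floor of the scale, at 3.09, 5.65 and 2.51 in Tsc2+/-, against 0.00685, 0.00468 and 0.00254 in Tsc2 WT cerebellum, where a log2 difference has little meaning.

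Il7r, the receptor of interleukin 7, was named by the study in connection with both models. It had 31.5, 22.6, 13.8, 18.5 and 29.7 in Fmr1-KO, against 12.9, 11, 12.6, 7.62 and 14.3 in Fmr1 WT cerebellum. It had 18.2, 19.1 and 20.3 in Tsc2+/-, against 9.94, 14.6 and 8.63 in Tsc2 WT cerebellum. All mutants lay above WT except Fmr1-KO mouse 3, which was within the WT range. Il7r was 1.95-fold higher in Fmr1-KO (log2 0.96, standard error 0.23) and 1.78-fold in Tsc2+/- mice (log2 0.83, standard error 0.30), with a mean effect of 0.90 (limma adjusted p = 0.716). With 16 added to each intensity before log2 the mean effect was 0.44. The study chose Il7r on these arrays, so these values are a description. At a mean log2 intensity of 3.94 it is below the minimum used for naming genes, among probe sets close to background. Of 46 cytokines and receptors, Il7r and Ccl3, a chemokine (0.75), were called higher in Fmr1-KO mice (0.0759% of probe sets), 0 in Tsc2+/- mice at p under 0.01, and Il7r was the 1 called for the mean effect (0.391% of all genes).

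Lists of genes for the pathways and cell types of interest differed little from WT, and their medians in the Fmr1 model depended on the arrays that stand apart. Over the 14066 genes the median was -0.036 in Fmr1-KO and -0.046 in Tsc2+/- mice, and 39.2% and 37.4% of them were above WT in that order, so a list mostly below WT lies on the side where most genes lay. Of 27 genes of mTOR signaling, 22 were below WT in Fmr1-KO (median -0.072) and 23 in Tsc2+/- mice (median -0.084), with 0 called in any comparison. Without both arrays numbered 1 of the Fmr1 model, 10 of the 27 were below WT in Fmr1-KO mice and the median was 0.043. Of 24 genes of metabotropic glutamate signaling and Purkinje cell long-term depression, 21 were below WT in each model (medians -0.087 in Fmr1-KO and -0.091 in Tsc2+/- mice), and Plcb4, a phospholipase of Purkinje cells, was the 1 called, lower in Fmr1-KO (-0.37, 0.152% of probe sets called lower). With both arrays left out 16 were below WT in Fmr1-KO mice. Of 18 genes on a list of FMRP and its targets, Fmr1 included, 17 were below WT in Fmr1-KO and 15 in Tsc2+/- mice, with Fmr1 the 1 called, and 10 in Fmr1-KO mice without both arrays. Besides targets, that list names paralogs and binding partners of FMRP. Of 16 genes of GABA signaling, 15 were below WT in Fmr1-KO (median -0.15) and 12 in Tsc2+/- mice (median -0.040), against 10 in Fmr1-KO mice without both arrays. Of 15 heat shock chaperones 13 were below WT in Fmr1-KO and 5 in Tsc2+/- mice, but 6 in Fmr1-KO mice without Fmr1-KO mouse 1. With arrays centred on their medians the GABA genes were 8 below and 8 above WT in Tsc2+/- mice, and the directions of the other lists of this paragraph stayed as given.

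Genes of translation and respiration were placed differently. Of 62 cytosolic ribosomal protein genes, 41 were above WT in Fmr1-KO (median 0.064) and 51 in Tsc2+/- mice (median 0.20), and in Fmr1-KO mice 55 were above WT without Fmr1-KO mouse 1 (median 0.16) and 32 with arrays centred on their medians (median 0.0080). Rpl32l was the 1 called, higher in Tsc2+/- (0.93, 0.337% of probe sets called higher). Of 63 genes of the respiratory chain and ATP synthase, 25 were above WT in Fmr1-KO (median -0.023) and 56 in Tsc2+/- mice (median 0.15), with 0 called. For 33 of the 63 the value was below WT in Fmr1-KO and above it in Tsc2+/- mice. This opposition was lost without Fmr1-KO mouse 1, when 46 of the 63 were above WT in Fmr1-KO mice, and without both arrays numbered 1 it was 42. With arrays centred on their medians 13 genes were above WT in Fmr1-KO and 59 in Tsc2+/- mice. The mean log2 intensity of the 63 genes was 10.08 in Fmr1-KO mouse 1 and 10.39 to 10.71 in the other KO mice, against 10.36 to 10.81 in Fmr1 WT mice. In Tsc2+/- mice it was 10.44, 10.74 and 10.97, against 10.29, 10.65 and 10.72 in Tsc2 WT mice, with overlap. The 62 ribosomal protein genes averaged 10.48, 10.8 and 10.87 in Tsc2+/-, against 10.32, 10.56 and 10.7 in Tsc2 WT mice, with overlap too. The median interaction of the respiratory genes, -0.205, ranged from -0.349 without Tsc2+/- mouse 1 to -0.037 without Tsc2 WT mouse 1. That of the ribosomal genes, -0.124, ranged from -0.266 to -0.033 with the same omissions.

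Cell type markers differed little by genotype. Of 12 Purkinje cell genes 10 were below WT in Fmr1-KO (median -0.081) and 5 in Tsc2+/- mice (median 0.023). Of 16 granule cell genes 14 and 13 were below WT, with medians of -0.088 in Fmr1-KO and -0.068 in Tsc2+/- mice. Without both arrays numbered 1 of the Fmr1 model, 7 of the Purkinje cell genes (median -0.026) and 9 of the granule cell genes (median -0.023) were below WT in Fmr1-KO mice. Of 11 oligodendrocyte genes 10 were below WT in Fmr1-KO and 6 in Tsc2+/- mice, but 3 in Fmr1-KO mice without both arrays. Among 10 choroid plexus genes all were above WT in Fmr1-KO and 8 in Tsc2+/- mice, where the summed level on single arrays differed several-fold as given above. Blood genes, 12 markers of red cells, platelets and leukocytes, summed to 914 to 1599 in Fmr1-KO, 883 to 1155 in Fmr1 WT, 720 to 961 in Tsc2+/- and 789 to 959 in Tsc2 WT mice. 0 genes of these 5 lists were called. In bulk tissue fewer cells of a type and less RNA per cell cannot be told apart, and the part that cell composition had in the shared and opposed genes was not tested.

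Ifi27l2a, an interferon-induced gene, was called for the interaction with a level below that used for naming. It had 92.5, 64.4, 85.4, 79.3 and 83.2 in Fmr1-KO, against 44.5, 63.2, 53.7, 58.6 and 58 in Fmr1 WT cerebellum, with every KO mouse above every WT mouse. It had 58.3, 57 and 56.4 in Tsc2+/-, against 54.8, 61 and 65.4 in Tsc2 WT cerebellum. The differences were 0.54 (standard error 0.12) and -0.074 (standard error 0.15) in the order Fmr1-KO, Tsc2+/-, and the interaction 0.62. It was the 1 of 15 interferon response genes called in any comparison, for the interaction (0.16% of all genes) and as higher in Fmr1-KO mice (0.0759% of probe sets). The interaction did not pass 0.01 in 11 of 24 other settings and omissions, among them both further scalings of the arrays.

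**Figure D5:**
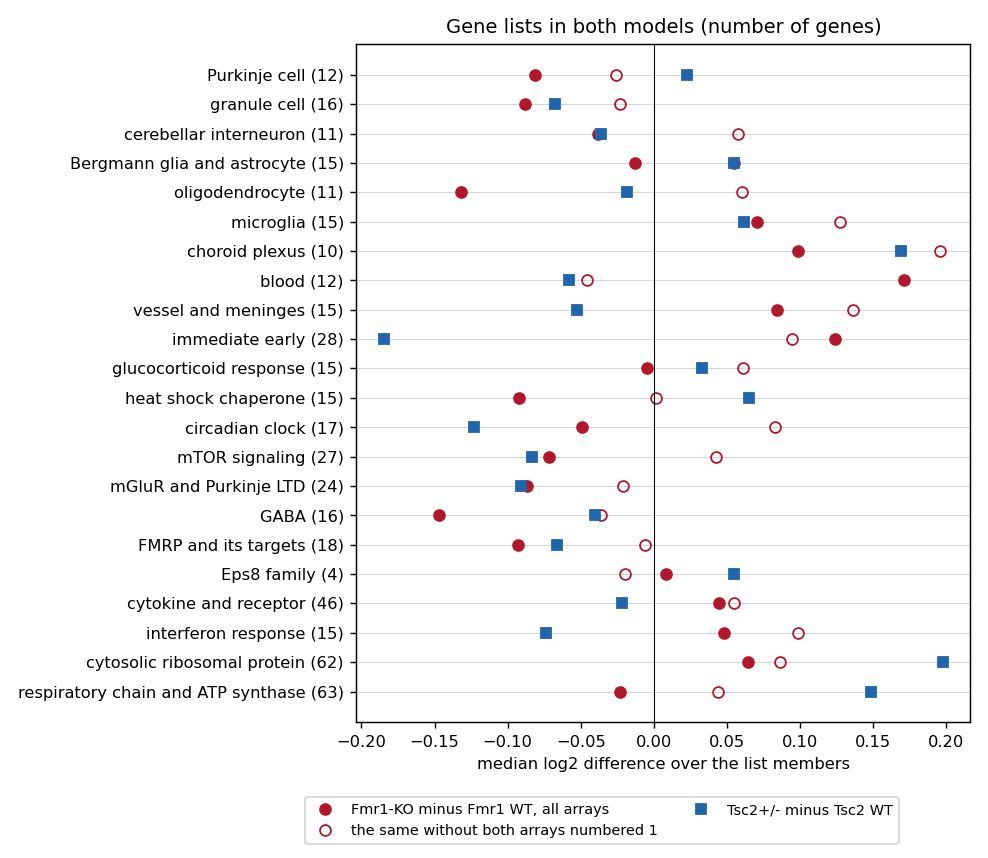
Median log2 difference from WT of 22 gene lists, in Fmr1-KO with all arrays (filled red), in Fmr1-KO without both arrays numbered 1 (open red) and in Tsc2+/- mice (blue squares). The immediate early list lies at 0.12 and -0.18, and many red points shift toward 0 or across it once both arrays are left out.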

How the data were processed

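Total RNA extracted with Trizol was labelled and hybridised to Affymetrix Mouse Gene 1.0 ST arrays. The authors normalized all 32 arrays together by quantiles at the probe level and summarised probe sets with the PLIER model of Affymetrix Power Tools, versions not given in the sources used here. The deposited values are linear intensities, 0.523% of which were under 1 and 4.06% under 16 in cerebellum. Joint normalization with blood can shift cerebellum values, and the number of arrays limits the precision. Here log2 intensities without an offset of the 16 cerebellum arrays were fitted in 4 groups with limma 3.58.1 in R 4.3.3 (lmFit and eBayes, 14.3 degrees of freedom in all), with contrasts for Fmr1-KO minus WT, Tsc2+/- minus WT, their difference and their mean, and Benjamini-Hochberg adjustment over 35556 probe sets. Of these, 21789 had 1 gene name, 1621 several and 12146 none, and a gene was represented by its probe set with the highest mean. Named genes had a mean log2 of 7 or more and were ranked by the smaller of both differences, at most 12 a direction. The study fitted each model with tissue as a further term. Exact permutation tests relabelled mice within each model. The members and gene lists were chosen with earlier results of these data known. The fit was tested on simulated data with known changes. Figures were drawn with matplotlib 3.10.9 in Python 3.11.15. Promoters came from RefSeq (GRCm38.p6). Alternatives were an offset of 16, quantile and median scaling, filters, array weights estimated gene by gene, an intensity trend, a replicate block, separate fits, an unequal-variance two-group test, other thresholds and each array left out. Leaving out both arrays numbered 1 of the Fmr1 model was chosen after seeing the data.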

Additional observations from a re-analysis of the deposited data

Results flagged for a closer look

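In 78 checks of a group of 5 mice for an array far from the rest, 9 found one, where chance alone gives about 1 in 20 for a single check. All checks used the same Fmr1-KO and Fmr1 WT arrays, so they are not independent of one another. In Fmr1-KO mice, mouse 1 stood apart in Wdr89 (683, others 275 to 349.9), Fmr1 (142, others 283 to 306), Tsc2 (1195, others 919.9 to 992) and in its correlation with its group (0.849, others 0.974 to 0.981). Fmr1 WT mouse 1 stood apart in Ncald (1405, others 845 to 919) and in the same correlation (0.906, others 0.976 to 0.990). Fos was far higher in Fmr1-KO mouse 4 (970.1, others 526 to 577). Among Fmr1 WT mice, Snord14e was high in mouse 2 (1227, others 955 to 990) and Tmem198 low in mouse 3 (257, others 314 to 339).

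The difference of mutant from WT mice was not the same in the 2 models, by a limma interaction with an adjusted p under 0.05, in 3 unnamed probe sets. Mutation, strain and experiment cannot be told apart here. The interaction was 4.81 for probe set 10564209 (-0.15 in Fmr1-KO and -4.96 in Tsc2+/- mice), 3.43 for probe set 10563959 (-0.11 and -3.54 in that order) and -9.83 for probe set 10340657 (-0.16 and 9.67), the last at intensities of at most 21.02. By the exact permutation test, the removed gene Fmr1 (-1.76, exact p = 0.00516) differed too. Eps8l1, which the study had chosen on these same arrays, had an interaction of -0.96 and an exact permutation p of 0.0353, which is for that reason no independent evidence, and its limma adjusted p was 1.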

How the results depend on the processing

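Having 3 mice a group in the Tsc2 model limits what can be called, and the smallest limma adjusted p of a named gene, that of Fmr1, was 0.16 for the mean effect and 0.18 for the interaction. The values named below are counts of probe sets unless stated, and the cause of each shift was not tested except where fewer probe sets, a stricter or looser threshold, or fewer arrays make it.

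The interaction count of 173 was 85 with probe sets at a mean log2 of 7 or more, 44 with those of 1 gene name, 1130 with array weights, 23 and 792 at p under 0.001 and 0.05, and 350 without both arrays numbered 1 of the Fmr1 model. In the same order the mean-effect count of 290 was 128, 107, 1313, 34 and 1544, and 506, the Fmr1 count of 81 was 35, 50, 488, 9 and 856, and 139, and the Tsc2 count of 331 was 166, 77, 1715, 54 and 1403, and 774. A further quantile normalization gave 471 for the mean effect and 183 for Fmr1, and the unequal-variance test 183 for Tsc2. After adjustment the counts were 0 for the interaction, the mean effect and Tsc2 with probe sets of 1 gene name, and 5, 7 and 8 with array weights, where all probe sets gave 3, 3 and 4. The Tsc2 count was 2 with an offset of 16, 2 at a mean log2 of 7 or more, 9 with each model fitted on its own arrays and 0 with the unequal-variance test. The Fmr1 count of 1 was 0 with quantile normalization, separate fits, the replicate block and the unequal-variance test. At unadjusted p under 0.05 the limma fit gave 856.

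Listed in both models in the same direction were 56 probe sets, and 100 with quantile normalization, 21 at a mean log2 of 7 or more, 20 with 1 gene name, 234 with array weights, 109 with the replicate block and 100 without both arrays. In opposite directions were 27, and 12, 6, 161 and 61 with the filter, 1 gene name, array weights and without both arrays. Pearson's r over all probe sets, 0.106, was 0.212 with the offset of 16, 0.194 at a mean log2 of 7 or more, 0.237 with 1 gene name and 0.0747 with array weights.

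With single arrays left out, the interaction count ranged from 104 to 273 (273, 104 and 115 without Tsc2+/- mice 1, 2 and 3) and its adjusted count from 3 to 4. The mean-effect count ranged from 154 to 495 (495 and 154 without Tsc2+/- mice 1 and 2, 470 and 179 without Tsc2 WT mice 1 and 2, 461 without Fmr1-KO mouse 1), its adjusted count from 2 to 8 (8 without Tsc2 WT mouse 1, 5 without Fmr1-KO mouse 1). The Fmr1 count ranged from 48 to 219 (123, 122, 182 and 219 without Fmr1-KO mice 1, 2, 3 and 4, 48 without Fmr1 WT mouse 5). The Tsc2 count ranged from 171 to 547 (547 and 171 without Tsc2+/- mice 1 and 2, 546 and 201 without Tsc2 WT mice 1 and 2, 542 without Fmr1-KO mouse 1), its adjusted count from 3 to 10 (10 without Tsc2 WT mouse 1). The count in the same direction ranged from 21 to 96 (96 and 89 without Fmr1-KO mice 1 and 3, 22 without Tsc2+/- mouse 2, 21 without Tsc2 WT mouse 2), that in opposite directions from 15 to 44 (44 without Fmr1-KO mouse 2, 43 without Fmr1 WT mouse 1, 15 without Tsc2+/- mouse 3), and r from 0.0472 to 0.143 (0.0472 without Tsc2+/- mouse 2, 0.0476 without Tsc2 WT mouse 2).

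The Tsc2 difference of Fmr1, -0.0095, was 0.023 with quantile normalization, 0.017 with centred arrays, 0.0027 with array weights and -0.083 to 0.065 with single arrays left out (0.065 without Tsc2+/- mouse 3). The Fmr1 difference of Tsc2, -0.0041, was 0.013 with quantile normalization, 0.028 with array weights, 0.065 without both arrays and -0.076 to 0.13 with single arrays left out. Among those omissions it was 0.029, 0.0091, 0.0051 and 0.0018 without Fmr1-KO mice 2, 3, 4 and 5, and 0.13 and 0.0081 without Fmr1 WT mice 1 and 4. The Tsc2 difference of Tsc2, -0.48, passed 0.01 with array weights (-0.57) and without both arrays (-0.48), and ranged from -0.63 to -0.39, passing without Fmr1 WT mouse 1 and without Tsc2+/- mouse 3. Its interaction of 0.48 passed with array weights (0.59) and without both arrays (0.55), and ranged from 0.39 to 0.63 (0.61, passing, without Fmr1 WT mouse 1). Il7r in Tsc2+/- mice, 0.83, passed 0.01 with quantile normalization (0.82), centred arrays (0.86) and the replicate block (0.83), with a range of 0.67 to 1.05, passing without Fmr1-KO mouse 3, Fmr1 WT mouse 4 or Tsc2 WT mouse 2. Its interaction of 0.13 ranged from -0.087 to 0.30 (-0.013 without Fmr1 WT mouse 4, -0.087 without Tsc2 WT mouse 2). Eps8l1 in Tsc2+/- mice ranged from 0.65 to 1.02 and its interaction from -1.17 to -0.79. Both lost p under 0.01 without Tsc2+/- mouse 1 or 2 or Tsc2 WT mouse 1 or 2, and the interaction also without Fmr1-KO mouse 3 or 4 or Fmr1 WT mouse 3 or 4.

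Mice of the same number were not shown to be paired. Correlations of their deviations were 0.373, 0.0035, 0.063, -0.010 and 0.153 in the Fmr1 model and 0.557, -0.279 and 0.444 in the Tsc2 model, and a mouse deviated most like its own number for number 1 in the Fmr1 model and numbers 1 and 3 in the Tsc2 model. With the replicate block Eps8l1 did not pass 0.01, at 0.82 in Tsc2+/- mice and -0.96 for the interaction. For the 33 named shared and opposed genes, Il7r and Ifi27l2a the mean effect or interaction kept its sign in every setting, with p under 0.01 in 252 of 313 combinations of gene and setting, and with single arrays left out in 387 and not in 173. The differences within a model could turn, in Jun and Rnu5g as given above and in Mafa, whose Fmr1 difference was -0.017 with quantile normalization.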

Other observations

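In blood of the same mice the interaction passed p under 0.01 in 0.509% of probe sets. Of 28 immediate early genes 6 had a positive Fmr1 difference and 18 a positive Tsc2 difference, and Klf2, a transcription factor of quiescent lymphocytes, was the 1 called for the interaction (-0.23 in Fmr1-KO and 0.61 in Tsc2+/- blood). Fos stood at 0.063 in Fmr1-KO and -0.14 in Tsc2+/- blood. Of the 33 named shared and opposed genes, Eps8l1 was the 1 called for the interaction in blood, with the signs it had in cerebellum, at -0.50 in Fmr1-KO and 1.24 in Tsc2+/- mice (interaction -1.74), and 0 were called for the mean effect (0.27% of probe sets). The study chose Eps8l1 with blood and cerebellum of these mice fitted together, so its signs in blood are no independent evidence. Tmem198 was called in Fmr1-KO blood, at -1.68 (limma adjusted p = 0.832), where its cerebellar difference was 0.26. Its mean log2 in blood was 4.26, below the minimum used for naming genes, so the size of that blood difference has little meaning. Both signs matched those in cerebellum in 2 of the 8 genes higher in both models, 6 of the 12 lower in both, 3 of the 9 higher in Fmr1-KO and 3 of the 4 higher in Tsc2+/- mice. The shares of all genes with such signs in blood are not given here, so the sign counts of this paragraph are a description only. Il7r, with a mean log2 of 11.3 in blood, stood at -0.16 and 0.21 in that order.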
